A study of Gallus gallus with 32 samples.

Results

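The genes described here belong to families that copy the genome and divide it between daughter cells: the MCM helicase subunits, the ORC origin proteins, the CDC genes, the cyclins and cyclin-dependent kinases, the replicative DNA polymerases, the centromere (CENP) and checkpoint (BUB, AURK) genes, and the kinesin (KIF) motors. The rule reads the start of the gene symbol, and the families it names were picked with earlier results of these data known. It was applied to the probe sets that carry exactly 1 gene symbol. The pattern matched 88 probe sets. Those of the 6 matching genes on chromosome Z, of which males carry a pair and females a single copy, were left out: CDC14B, CDC37L1, CDK7, CENPH, KIF24 and KIF2A. This left 80 genes of the 9683 with a single-symbol probe set, each read from its brightest probe set, and all 80 had a value in every bird. Another 27 genes of the same pattern were not analysed here, among them the helicase subunit MCM2.

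A cell prepares to divide by loading the MCM helicase onto origins marked by the origin recognition complex, and cyclins with their kinase partners then start DNA synthesis and, later, mitosis. Kinetochore proteins join the centromere to the spindle, and mitotic kinesins build and shorten that spindle. In chicken blood most cells are nucleated red cells, which have left the cell cycle, and the few dividing cells can include immature red cells and activated lymphocytes. The symbol families also hold genes that do other work, such as cyclins and kinases of transcription and kinesins that carry cargo along resting cells' microtubules.

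The samples were clotted blood from 32 broilers, with the tissue label whole blood cells and 1 array per bird. The birds formed 4 groups of 8: females on the standard control diet, males on that diet, and females and males on the standard diet with a Comfrey supplement. For age the labels carry the value 32 in all birds, with months as its unit, which is unusual for broilers, and they give no line, dose or length of feeding. Values are log2 signals, so a difference of 1 is a doubling, and the 32 array medians lay between 6.51 and 6.60. Markers of blood cells were measured in each group: the mean of 5 of 9 erythroid genes lay between 11.72 and 11.89 in the 4 groups, of 4 of 6 T cell genes between 8.31 and 8.46, of 2 of 7 heterophil genes between 8.23 and 8.40, of 2 of 5 B cell genes between 5.98 and 6.09 and of 1 of 4 monocyte genes between 6.14 and 6.32. Group means of the thrombocyte genes lay between 7.11 and 7.91. In such bulk samples, fewer cells of a type and less RNA per cell cannot be told apart.

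Mean signals of the members ran from 2.15 to 11.89, and 45 of 80 were brighter than the median probe set. The 4 members CCNI2, CDC2L1, KIF12 and KIF2B were put in no role list. The share differed by role. It held for all 7 transcription cyclins and kinases and 5 of 8 origin recognition and licensing genes. Of kinetochore and checkpoint genes 5 of 17 were brighter, and of mitotic kinesins 3 of 7. The spread between birds of a group (pooled SD) had a median of 0.208 among members and 0.231 over all 17894 probe sets tested. The steadiest members were CDC73, a subunit of the PAF transcription elongation complex, at an SD of 0.067, and MCM3AP, an RNA export factor whose gene name recalls its binding to MCM3, at 0.069. All 7 transcription cyclins and kinases (CCNL1, CCNL2, CDK9, CDK10, CDK12, CDK13 and CDK19) had SDs between 0.099 and 0.18. Their mean signals were high, from 8.01 to 11.89. The replication origin genes varied more, with a median SD of 0.377 over 8 genes. Their most variable member was ORC5, an origin recognition subunit, at 0.667 and a low mean signal of 4.37. The least variable was the helicase subunit MCM3 at 0.146. KIF13B had an SD of 0.653 at a mean signal of 2.15, close to the bottom of the range.

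The first comparison asked whether the cell cycle families differed between blood of comfrey-fed and control birds. None of the 80 members passed between 16 comfrey-fed and 16 control birds (limma, call at a Benjamini-Hochberg adjusted p under 0.05 over all probe sets), where 0% of all probe sets passed. At an unadjusted p under 0.05 there were 6 members, against 7.99% of all probe sets. The difference was positive in 43 of 80 members, with a median of 0.007, and in 47.4% of all probe sets, with a median of -0.006. The 95% interval lay within log2 0.5 of 0 for 77 members and within a 2-fold change for all 80, and the 3 wider than log2 0.5 were CDC23, KIF3A and ORC5.

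The genes with the smallest p for diet did not pass either (limma, adjusted p 0.573 to 0.626), and their values follow. KIF18B, a kinesin that shortens microtubules at the spindle ends, had its lowest, median and highest signals at 5.91, 6.00 and 6.22 in control females and at 5.59, 5.87 and 6.16 in comfrey-fed females. In males they were 5.77, 6.07 and 6.26 on control and 5.43, 5.86 and 6.06 on comfrey. Both pairs of groups overlapped while the comfrey median was the lower in both sexes, and the difference was -0.18 ± 0.057 (SE). MCM10, which helps activate the helicase, was at 6.11, 6.37 and 6.68 in females on control feed, 6.29, 6.43 and 6.59 in females on comfrey, 6.12, 6.33 and 6.47 in males on control feed and 6.35, 6.59 and 6.87 in males on comfrey. Its groups overlapped too, with a difference of 0.16 ± 0.059. Negative differences were also measured for CDC23, a subunit of the anaphase-promoting complex, at -0.25 ± 0.12, KIF2B, a microtubule depolymerase, at -0.15 ± 0.064, and CENPO, of the inner kinetochore, at -0.12 ± 0.052. Positive ones were measured for KIF3A, a motor subunit of ciliary transport, at 0.34 ± 0.17, and the transcription kinases CDK19 at 0.12 ± 0.065 and CDK10 at 0.11 ± 0.056.

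By role, none of the 11 lists held a member that passed for diet. The 8 origin recognition and licensing genes were positive in 4, with a median of 0.012. The 17 kinetochore and checkpoint genes were positive in 9, with a median of 0.020, and the 7 cell cycle cyclins and kinases in 3, with a median of -0.001. This last list includes the phosphatase CDC25A. Mitotic kinesins were positive in 2 of 7, with a median of -0.057, and other CDC-named genes in 5 of 6, with a median of 0.041. The other 6 lists had medians between -0.033 and 0.089. They held polymerases, origin firing genes, transcription cyclins and kinases, anaphase genes, transport kinesins, and CDK14 and CDK15 with the inhibitor CDK2AP1. Of the proliferation genes outside these families (such as RFC, GINS and condensin subunits, 29 of 42 listed being measured), 15 of 29 were positive, with a median of 0.003, and 0 passed. Over all probe sets 47.4% were positive and 0% passed.

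No member passed for diet within either sex. In females 0 members passed, against 0.00559% of all probe sets, and 0 members had an unadjusted p under 0.05, against 3.93% of all probe sets. The difference was positive in 41 of 80 members, against 46.8% of all probe sets. In males 0 passed (limma, lowest adjusted p among members 0.414), against 0% of all probe sets, and 13 members had an unadjusted p under 0.05, against 10.3% of all probe sets. The difference in males was positive in 43 of 80 members, against 47.9% of all probe sets.

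The values with the smallest p in males, none of which passed, were MCM10 at 0.27 ± 0.080, CDC123, an assembly factor of translation initiation, at 0.35 ± 0.11, KIF3A at 0.66 ± 0.22 and KIF13A, a carrier of endosomes, at 0.31 ± 0.11 (SE). KIF3A stood at 5.91, 7.21 and 7.52 (lowest, median and highest) in control males and at 7.11, 7.62 and 8.50 in comfrey-fed males. The ranges of its males overlapped, and its lowest control male stood apart from the other 7, which lay at 6.80 or above. In females KIF3A was at 6.65, 7.27 and 7.96 on control and at 6.43, 7.35 and 7.72 on comfrey, a difference of 0.03. Negative values in males were KIF18B at -0.21 ± 0.082, KIF7, a kinesin of hedgehog signalling, at -0.18 ± 0.072, CENPO at -0.16 ± 0.073 and CDC23 at -0.38 ± 0.18. In females the values with the smallest p were KIF18B at -0.16 ± 0.082, CCND1 at -0.19 ± 0.11, CDC123 at -0.20 ± 0.11 and the mitotic cyclin CCNB1 at -0.22 ± 0.14 on the negative side. On the positive side they were KIF20B, a kinesin of cytokinesis, at 0.26 ± 0.14, MCM5 at 0.20 ± 0.15, CDK19 at 0.13 ± 0.093 and KIF16B at 0.25 ± 0.26, and in limma all 8 genes had an adjusted p of 0.998.

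**Figure D1:**
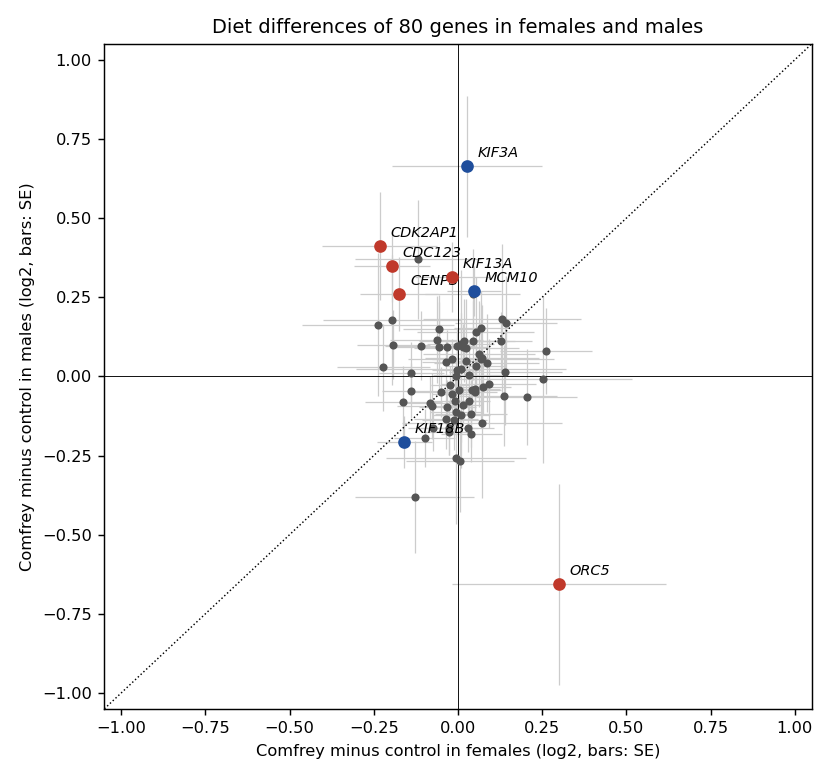
Comfrey minus control difference (log2, bars are SE) in females on the x axis and in males on the y axis, 1 point per gene for 80 genes, with equality as a dotted line. Red points have an unadjusted interaction p under 0.05 and blue points are other genes named in the text. CDC123, CDK2AP1 and CENPS lie above 0 in males and below 0 in females, ORC5 lies the other way round, and no gene passed in either sex or for the difference between them.

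Whether the diet difference itself differed between the sexes was tested with the interaction term (males minus females). Here 0 members passed (limma, lowest adjusted p among members 0.80), against 0% of all probe sets, and 5 had an unadjusted p under 0.05, against 5.7% of all probe sets. The interaction was positive in 38 of 80 members and in 49.3% of all probe sets. CDC123 averaged 8.38 ± 0.24 in males on control feed against 8.73 ± 0.22 in males on comfrey, while females averaged 8.55 ± 0.26 on control feed against 8.35 ± 0.18 on comfrey (SD, n = 8), an interaction of 0.55 ± 0.16 (SE). CDK2AP1, an inhibitor of the S phase kinase CDK2, averaged 4.95 ± 0.46 and 5.37 ± 0.38 in males on control feed and on comfrey, and 5.15 ± 0.29 and 4.92 ± 0.23 in such females (SD, n = 8), an interaction of 0.64 ± 0.24. These opposite signs in males and females were not called. CENPS, a histone-fold protein of centromeres and DNA repair, was at 0.43 ± 0.17, KIF13A at 0.33 ± 0.16 and ORC5 at -0.96 ± 0.45, with KIF23, CDC20 and KIF7 between -0.22 and -0.15. The interval of the interaction was wider than that of the diet difference, within a 2-fold change for 74 of 80 members and within log2 0.5 for 48.

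The second comparison set males against females. POLE3, CCND1 and MCM4 were higher in males, by 0.28 to 0.44 on the log2 scale or 1.22-fold to 1.35-fold, and no member was lower in males at the threshold. The 3 calls among 80 members compare with 5.35% of all probe sets (3.53% higher in males) and with 2.94% of autosomal single-symbol probe sets (1.82% higher in males), so the members' share lay close to the background. At an unadjusted p under 0.05 there were 17 members, against 16.5% of all and 14.1% of autosomal single-symbol probe sets. The difference was positive in 53 of 80 members, with a median of 0.046, while it was positive in 40.8% of all probe sets, with a median of -0.025, and in 44% of autosomal single-symbol ones, with a median of -0.014.

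POLE3, on chromosome 17, encodes a small histone-fold subunit of DNA polymerase epsilon, the polymerase of the leading strand, which also serves in a chromatin remodelling complex. Its lowest, median and highest signals were 6.64, 6.87 and 7.40 in females on control feed, 6.34, 6.83 and 7.33 in females on comfrey, 6.83, 7.23 and 7.78 in males on control feed and 6.91, 7.42 and 7.77 in males on comfrey. The sexes overlapped on both diets, with 15 of 16 males above the female median and 6 of 16 above the highest female. The male minus female difference was 0.44 ± 0.10 (SE, limma, adjusted p 0.00454). The catalytic subunit of the same polymerase, POLE, differed by 0.08 with an adjusted p of 0.648 in limma, and its interval of -0.07 to 0.23 did not reach the POLE3 estimate.

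CCND1 encodes cyclin D1, which pairs with cell cycle kinases to carry cells out of the resting state, and lies on chromosome 5. It stood at 8.25, 8.60 and 8.84 in females on control feed, 8.14, 8.37 and 8.73 in females on comfrey, 8.38, 8.78 and 9.00 in males on control feed and 8.34, 8.87 and 9.08 in males on comfrey. Again all groups overlapped, with 13 of 16 males above the female median. The difference was 0.28 ± 0.079 (limma, adjusted p 0.0276).

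MCM4, a subunit of the replicative helicase on chromosome 2, stood at 7.83, 8.02 and 8.76 in females on control feed, 7.78, 8.14 and 8.85 in females on comfrey, 8.01, 8.42 and 9.11 in males on control feed and 8.00, 8.55 and 8.94 in males on comfrey. Both female groups contained 1 bird close to the highest males, and 14 of 16 males lay above the female median. The difference was 0.36 ± 0.11 (limma, adjusted p 0.0407). The other helicase subunits measured did not pass, with differences of 0.13 ± 0.087 for MCM6, 0.07 ± 0.054 for MCM3 and 0.04 ± 0.11 for MCM5. MCM4 was not tested against its partners, and the 95% intervals of MCM4 (0.14 to 0.59) and MCM6 (-0.05 to 0.31) overlapped.

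**Figure D2:**
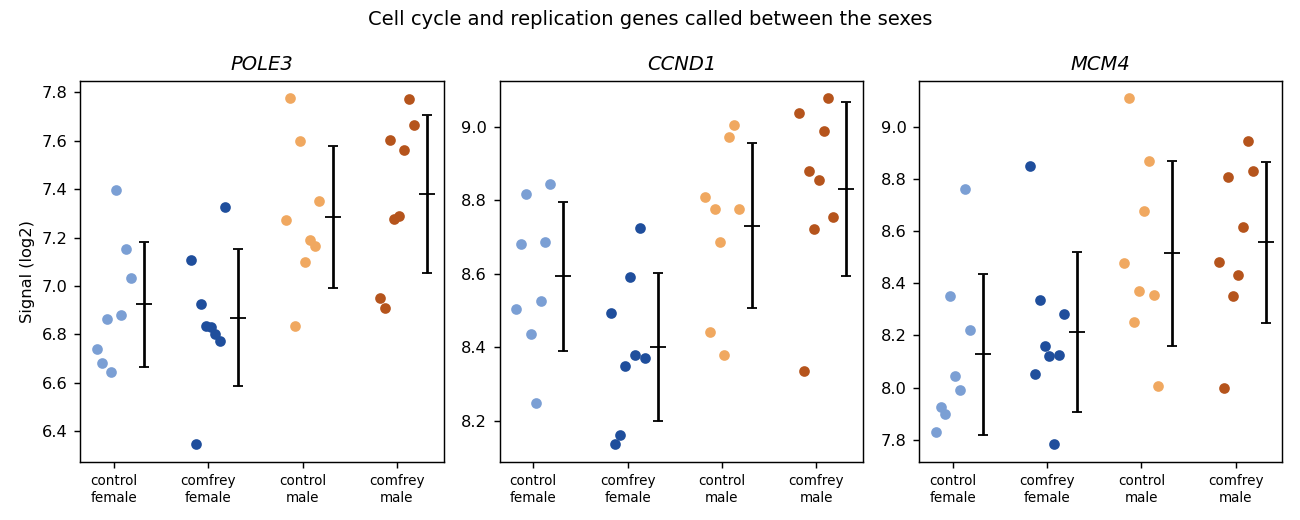
Log2 signal of POLE3, CCND1 and MCM4 in each of the 32 birds, with 8 points per group and the mean ± SD as a black bar beside them; the y axes differ between panels. Male medians lie above female medians on both diets, and the groups overlap in all 3 genes.

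The titles number the birds from 1 to 32, without saying what the number stands for, and this number was unevenly spread over the groups: birds 1 to 16 held 6 of 8 control females but 2 of 8 control males. Within birds 1 to 16 the male minus female difference was 0.50 for POLE3, 0.37 for MCM4 and 0.30 for CCND1, and within birds 17 to 32 it was 0.41, 0.33 and 0.23. The 3 genes kept their sign and most of their size in both ranges of bird number, and none passed within either (limma, adjusted p 0.127 to 0.506). With these ranges as a block, POLE3 alone passed (0.41, adjusted p 0.0123), MCM4 was at 0.36 (adjusted p 0.0677) and CCND1 at 0.25 (adjusted p 0.0686). With bird number as a covariate POLE3 and CCND1 passed and MCM4 did not (0.35, adjusted p 0.0518). When single birds were left out, POLE3 passed in all 32 cases, CCND1 was lost in 2 (without comfrey-fed female 2 or comfrey-fed male 7, adjusted p 0.0516 and 0.0501) and MCM4 in 17 of 32 (highest adjusted p 0.0719).

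Thrombocyte markers differed by sex as well in the fit without bird number. The mean of 5 of 6 listed genes averaged 7.11 in females on control feed, 7.19 in females on comfrey, 7.91 in males on control feed and 7.52 in males on comfrey, with bird values from 6.53 to 7.80, 6.83 to 7.72, 6.54 to 8.77 and 6.44 to 8.37. In birds 1 to 16 this mean ran from 6.53 to 7.32 in females and from 6.44 to 7.53 in males. In birds 17 to 32 it ran from 6.98 to 7.80 in females and from 7.18 to 8.77 in males. All 5 male minus female differences were positive in the fit, which left out bird number. ITGB3, the platelet fibrinogen receptor chain, passed at 0.74 and GP1BB, of the von Willebrand receptor, at 0.49 (limma, adjusted p 0.0418 and 0.0385). Across the 32 birds, with group means removed, r with these markers was 0.18 for POLE3, 0.20 for CCND1 and 0.05 for MCM4 (permutation p 0.313, 0.267 and 0.80, adjusted over 80 members 0.511, 0.465 and 0.891). Spearman's rho was 0.13, 0.23 and 0.08 (permutation p 0.464, 0.20 and 0.666), and without the 2 birds farthest from the median r was 0.10, 0.36 and 0.03. Within birds 1 to 16 r was 0.09, -0.47 and 0.28, and within birds 17 to 32 it was 0.26, 0.08 and -0.04. No marker of another cell type passed for sex. Of 5 erythroid markers 4 were positive, with HEMGN at 0.41 ± 0.14 and SLC4A1 at 0.28 ± 0.11 (SE, limma, adjusted p 0.0967 and 0.151). T cell markers lay between -0.02 and 0.21 and heterophil markers between 0.01 and 0.20 (limma, lowest adjusted p 0.154 and 0.0943). The part of thrombocytes or of other cells in the sex differences was not tested.

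Further members with a small unadjusted p did not pass for sex. On the positive side CCNG2, cyclin G2, which in mammals marks cells that leave the cycle, was at 0.36 ± 0.11 (limma, adjusted p 0.0566). The remaining members with a positive difference and an unadjusted p under 0.05 lie outside the rule for named genes and were added after their values were seen. Among them ORC6, an origin recognition subunit, was at 0.40 ± 0.15, CENPN, which binds centromeric nucleosomes, at 0.33 ± 0.12, and the spindle kinesins KIF15, KIF23 and KIF11 at 0.26 ± 0.11, 0.19 ± 0.065 and 0.16 ± 0.061. The others were BUB1B at 0.17 ± 0.075, CDC45, which travels with the helicase, at 0.17 ± 0.074, the phosphatase CDC25A at 0.13 ± 0.061, AURKAIP1 at 0.13 ± 0.059 and CDC27, of the anaphase-promoting complex, at 0.10 ± 0.044. On the negative side KIF26A, a kinesin without motor activity, was at -0.22 ± 0.067 (limma, adjusted p 0.0512), the ubiquitin-conjugating enzyme CDC34 at -0.25 ± 0.10 (-0.06 in its second probe set), ORC2 at -0.24 ± 0.15 and KIF3B, the partner of KIF3A, at -0.10 ± 0.050. CCNG2 and KIF26A lay so near the threshold that each passed in 8 of the 32 sets with 1 bird left out.

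By role, 7 of 8 origin recognition and licensing genes had a positive male minus female difference (median 0.152, 1 called), as did both polymerase subunits (median 0.258, 1 called). The 4 genes listed under origin firing and fork were positive in 3 (median 0.115, 0 called), and the negative one was the RNA export factor MCM3AP (-0.03), which is in this list by its symbol. The highest was MCM9 (0.21), which is in the list by its symbol too, and the others were CDC45 and MCM10. Cell cycle cyclins and kinases were positive in 5 of 7 (median 0.098, 1 called), kinetochore and checkpoint genes in 12 of 17 (median 0.070, 0 called) and mitotic kinesins in 5 of 7 (median 0.10, 0 called). The cyclin and kinase list includes the phosphatase CDC25A and CCNG2, the cyclin of cells that leave the cycle, both positive. The kinetochore list holds AURKAIP1, a protein of the mitochondrial ribosome, and CENPJ, a centriole protein, by their symbols. The list of anaphase and mitotic exit genes, which also act in division, was positive in 2 of 4 (median -0.035, 0 called). Its lowest member, CDC34 at -0.25, is a ubiquitin-conjugating enzyme that is in this list by its symbol. Transcription cyclins and kinases had a median of 0.006 with 5 of 7 positive, and transport and ciliary kinesins a median of 0.006 with 6 of 11 positive, both with 0 called. The transport list holds the kinesin-binding protein KIF1BP by its symbol. Other CDC-named genes were positive in 4 of 6 (median 0.059), with 0 called. The list of the kinases CDK14 and CDK15 and the kinase inhibitor CDK2AP1 was positive in 1 of 3 (median -0.083, 0 called). Its positive member was CDK2AP1 (0.13). Of the 4 members in no list, CCNI2 was positive, and CDC2L1, KIF12 and KIF2B were negative. Differences between the lists were not tested. In the proliferation genes outside the families, 21 of 29 were positive with a median of 0.084, and 2 passed, NCAPH, a condensin subunit, at 0.29 ± 0.074 and GINS3, of the GINS complex that works with the MCM helicase, at 0.33 ± 0.087 (limma, adjusted p 0.0117 and 0.0187). Beside all these counts, 44% of autosomal single-symbol probe sets were positive and 2.94% called, and 40.8% and 5.35% of all probe sets. Genes of a list are not independent replicates, and no list was tested as a whole.

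**Figure D3:**
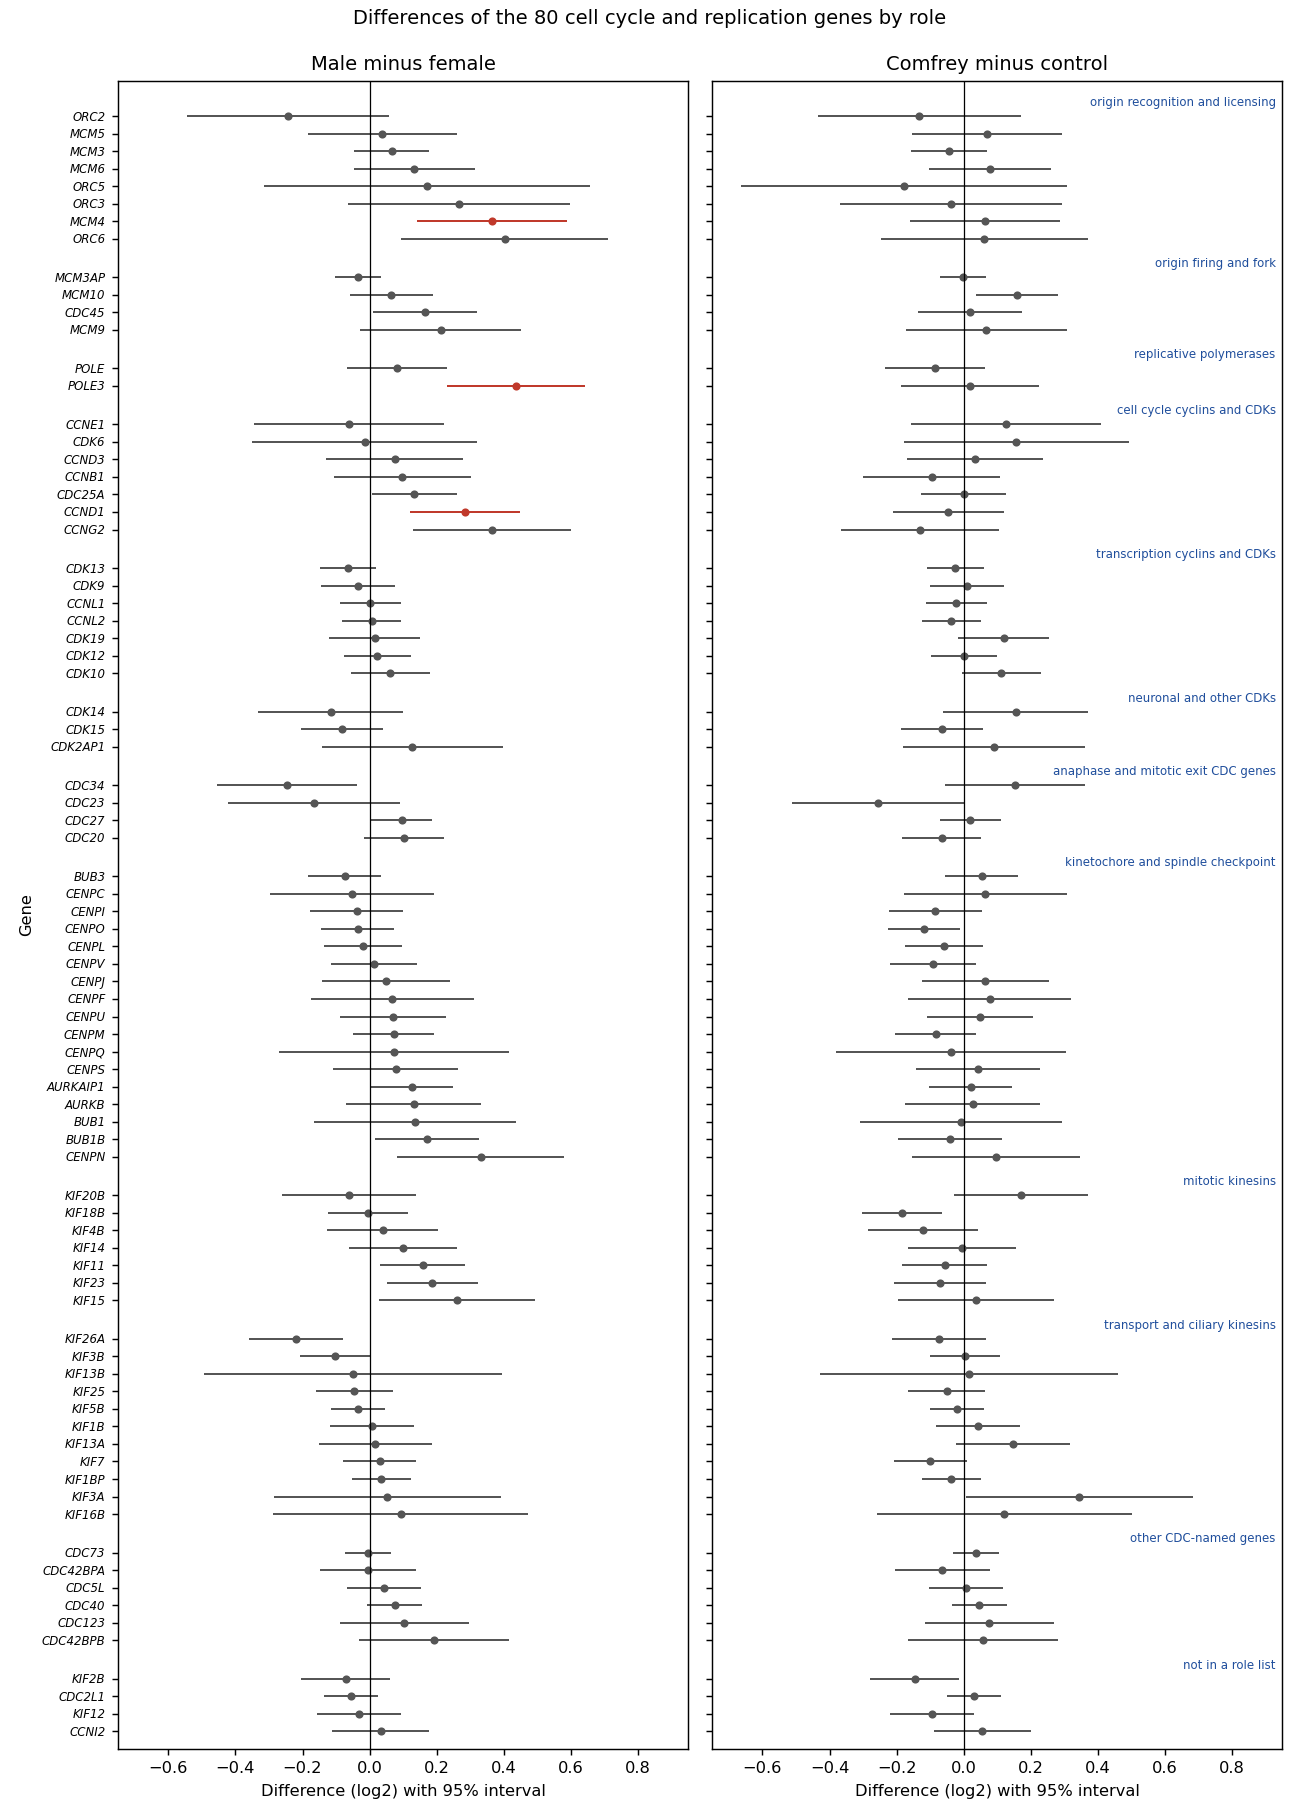
Male minus female (left) and comfrey minus control (right) log2 difference of each of the 80 genes with its 95% interval, grouped by role and ordered within a role by the sex difference; red marks an adjusted p under 0.05. POLE3, MCM4 and CCND1 are the red genes on the left, and the right panel has none.

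How the members varied together between birds was examined on signals with the 4 group means removed. Over all 3160 pairs of members the median Pearson correlation was 0.021, against -0.001 over the pairs of 2000 sampled probe sets. An r over 0.5 was found in 2.12% of the member pairs, against 2.79% of the sampled pairs. An r under -0.5 was found in 1.33%, against 1.71%. Within the role lists the median lay between -0.06 and 0.06. Among the 4 measured subunits of the helicase ring, 1 of 6 pairs passed: MCM4 and MCM6, with r 0.633 (permutation p 9e-05, adjusted over 6 pairs 0.00054) and Spearman's rho 0.564 (adjusted 0.00588), and r 0.638 without the 2 birds farthest from the MCM4 median. Within birds 1 to 16 their r was 0.716 and within birds 17 to 32 it was 0.640. MCM3 and MCM5 had r 0.365 (adjusted permutation p 0.121), with -0.15 and 0.541 in these ranges, and the other 4 pairs lay between -0.24 and 0.04.

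A smaller set of members followed the proliferation genes outside the families. Each member was set against the mean of the 29 standardized outside genes. An r over 0.5 was found for 9 of 80, against 2.73% of the 17865 probe sets outside the 29, members included. The 9 were MCM6 (0.761), CENPN (0.692), CDK14 (0.670), KIF15 (0.616), MCM4 (0.608), CENPF (0.587), CCNE1, the cyclin of S phase entry (0.573), BUB1B of the spindle checkpoint (0.545) and POLE3 (0.514). CENPF was read from its brighter probe set only, and its second, dimmer probe set had an r of 0.03 with that one. Over the 80 relations, 15 members passed, 12 of them positive (permutation, adjusted p under 0.05), and 17 passed on ranks. The share over all probe sets was not computed on ranks. Only group means were removed, so a shift that members and outside genes share between birds 1 to 16 and birds 17 to 32 is part of these values and their p. The weakest r among the 15 had a size of 0.474. Of the same 17865 probe sets 8.4% lay at least as far from 0, 3.53% on the positive and 4.86% on the negative side. The 9 members had r from 0.456 to 0.838 within birds 1 to 16 and from 0.205 (POLE3) to 0.831 within birds 17 to 32. They were chosen on the same 32 birds, so these values are a description and no independent check, and 15 and 16 of all 80 members exceeded 0.5 within these ranges. The share of all probe sets over 0.5 within these ranges was not computed, so these counts have no background. Some of these 9 members also varied with markers of blood cells. Their r with the T cell markers ran from 0.09 (POLE3) and 0.11 (MCM4) to 0.60 (BUB1B), with 0.58 for MCM6. With the 1 monocyte marker r ran from -0.53 (CCNE1) to -0.07 (BUB1B), and with the erythroid markers from -0.47 (CENPF) to -0.03 (MCM4). Members outside the 9 reached such values too, such as CENPJ with the T cell markers (0.42) and CDC45 with the monocyte marker (-0.56). These relations to T cell, monocyte and erythroid markers were not tested, and their share over all probe sets was not computed.

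Of the 80 members MCM6 had the closest relation to these genes, with rho 0.787 and, for both r and rho, the smallest p that 100000 permutations can give (1e-05, adjusted 0.0004). Its r was 0.838 within birds 1 to 16 and 0.831 within birds 17 to 32. Against single outside genes it reached 0.695 with RRM2, which makes deoxynucleotides, 0.669 with UHRF1, which maintains DNA methylation, and 0.636 with MAD2L1 of the spindle checkpoint, while it was -0.082 with MKI67 and -0.404 with TOP2A, common markers of dividing cells. The outside genes themselves varied together little, with a median pairwise r of 0.061, against -0.001 over the pairs of sampled probe sets. An r over 0.5 was found in 3.45% of their pairs, against 2.79% of the sampled pairs.

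The relation rested in part on a few birds. The farthest from the median of the outside mean were comfrey-fed male 7 and control male 2, which held the highest means. Comfrey-fed male 7 also had the highest MCM6 (7.58), KIF15 (6.96) and CENPN (6.20) of all birds, and control male 2 had the next CENPN at 6.18. Without these 2 birds r was 0.653 for MCM6, 0.676 for CDK14, 0.524 for CENPF and 0.502 for MCM4, and the other 5 fell under 0.5, among them CENPN at 0.471 and KIF15 at 0.349. The share of all probe sets over 0.5 without these birds was not computed. An r under -0.5 was found for 1 of 80 members, KIF12 (-0.502), against 3.43% of the same 17865 probe sets. Next to it on the negative side were KIF7 (-0.485) and KIF2B (-0.474). Without the same 2 birds r was -0.409 for KIF12, -0.241 for KIF7 and -0.378 for KIF2B. Within birds 1 to 16 it was -0.732, -0.616 and -0.788, and within birds 17 to 32 -0.328, -0.183 and -0.157. These 3 kinesins were also close to each other, with r 0.823 for KIF12 and KIF2B and 0.776 for KIF12 and KIF7. On the positive side KIF15 with MCM6 had r 0.828, the highest of the 3160 pairs, and CENPN had 0.795 with KIF15 and 0.729 with MCM6. These pairs were picked for their size and so were not tested.

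**Figure D4:**
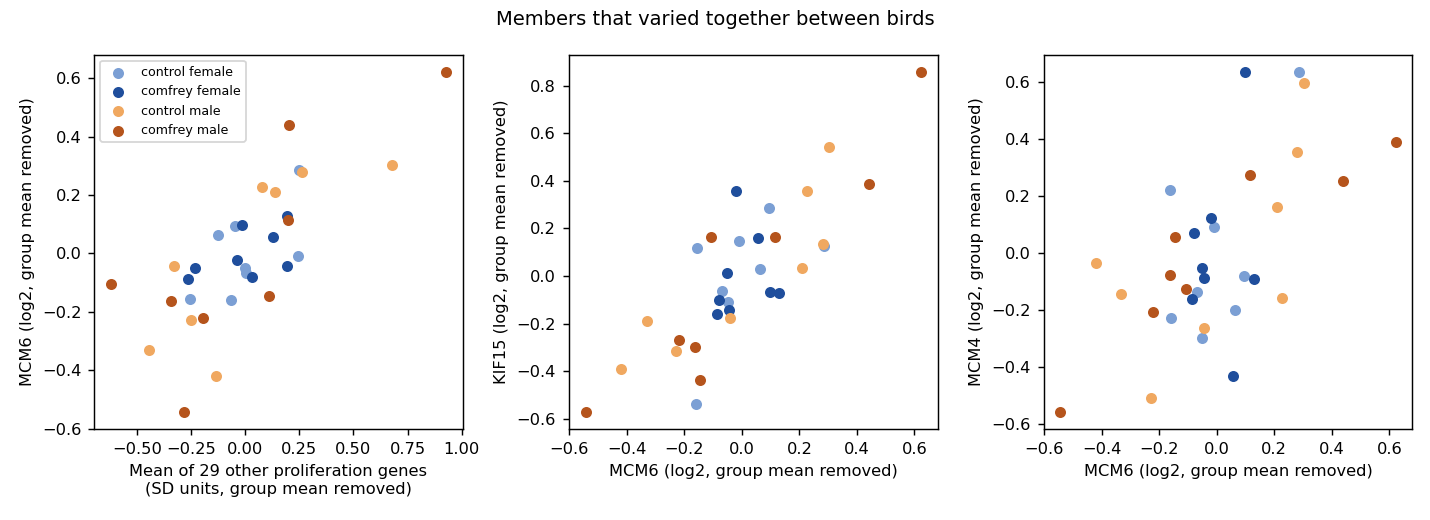
Each point is 1 of 32 birds, coloured by group, with its group mean removed. MCM6 is plotted against the mean of 29 other proliferation genes (left, SD units), KIF15 against MCM6 (middle, log2) and MCM4 against MCM6 (right, log2). The correlations are 0.761, 0.828 and 0.633, and 1 comfrey-fed male lies at the upper right of the left and middle panels.

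Because bird number was uneven over the groups, birds 17 to 32 were also compared with birds 1 to 16, a contrast added after the data were seen, with the 4 group means in the model. CCNG2 and CENPF were higher in birds 17 to 32, and these 2 calls among 80 members compare with 3.04% of all probe sets. At an unadjusted p under 0.05 there were 15 members, against 19.2% of all probe sets, and 42 of 80 differences were positive, against 40.5%. CCNG2 stood at 6.36, 6.79 and 7.23 (lowest, median and highest) in birds 1 to 16 and at 6.90, 7.17 and 8.30 in birds 17 to 32. The 2 sets of birds overlapped, and the fitted difference was 0.40 ± 0.099 (limma, adjusted p 0.0178). CENPF, a large protein of the outer kinetochore made late in the cycle, stood at 6.31, 6.69 and 7.28 and at 6.55, 7.13 and 7.44, a difference of 0.38 ± 0.11 (limma, adjusted p 0.0473). CENPF was lost in 23 of 32 sets with 1 bird left out, and its second, dimmer probe set differed by 0.02, so the mean of both probe sets gave 0.20 (limma, adjusted p 0.576). CENPI, of the inner kinetochore, was at -0.21 ± 0.062 and did not pass (adjusted p 0.0558). Further values that did not pass were AURKAIP1 at 0.17 ± 0.056 and CDC42BPB, a kinase that acts with CDC42, at 0.31 ± 0.11 on the positive side, and CDK15, KIF12 and CDC25A, each at -0.15, on the negative side (limma, adjusted p 0.0839 to 0.163).

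Of 5 thrombocyte markers, 4 differed by more than the called members between these 2 sets of birds. GP9 was higher in birds 17 to 32 by 1.62, F13A1 by 1.14, ITGB3 by 0.92 and GP1BB by 0.57 (limma, adjusted p 0.000322 to 0.00446). The fifth differed by 0.09 and did not pass (limma, adjusted p 0.619). Listed markers of other cell types did not pass. Among them TFRC, of red cells, was at -0.23 (limma, adjusted p 0.0991). The 4 T cell markers lay between -0.11 and 0.29 (limma, lowest adjusted p 0.0972). Across the 32 birds CCNG2 had an r of 0.604 with the thrombocyte markers (permutation p 0.00039, adjusted over 80 members 0.0156), a rho of 0.586 (adjusted 0.0496) and an r of 0.525 without the 2 birds farthest from the median. For CENPF r was 0.40 (permutation p 0.0242, adjusted 0.128). Only group means were removed here, so the shift that both genes and the markers share between the 2 sets of birds is part of these values. Within birds 1 to 16 r was 0.27 for CCNG2 and 0.22 for CENPF, and within birds 17 to 32 it was 0.36 and 0.11, each lower than over all birds. Over all birds 3 of 80 members passed against the thrombocyte markers (permutation, adjusted p under 0.05). Besides CCNG2 they were CDC20 with r 0.592 (adjusted p 0.0156) and CDC2L1 with r -0.532 (adjusted p 0.0491). On ranks CDC20 did not pass (permutation, adjusted p 0.104). Neither CDC20 nor CDC2L1 was called between the 2 sets of birds, and the share over all probe sets was not computed. Whether the CCNG2 and CENPF differences follow thrombocytes was not tested.

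**Figure D5:**
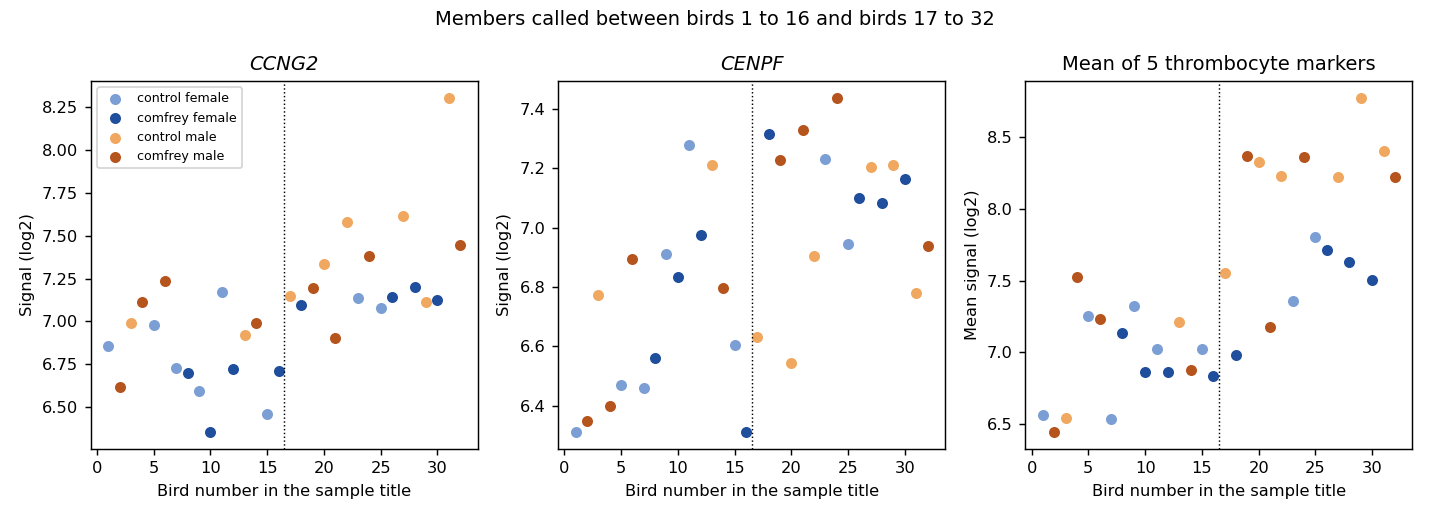
Log2 signal of CCNG2 (left) and CENPF (middle) and the mean log2 signal of 5 thrombocyte markers (right) in 32 birds, ordered by the bird number of the sample titles and coloured by group; the dotted line separates birds 1 to 16 from birds 17 to 32. CCNG2 medians are 6.79 on the left of the line and 7.17 on the right, and CENPF medians 6.69 and 7.13.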

How the data were processed

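RNA of blood clots from 32 birds was hybridised to Affymetrix arrays, 1 per bird. The signals per probe set were deposited on a log2 scale, and the authors made them with GCOS 1.1.1 and RMA, per the submitters' processing notes. The log base was read from the values, and no source used here names the genome build of the probes. Of 20804 rows, 2910 were blank and 17894 were tested without a filter on signal. Gene symbols came from the platform table and chromosomes from RefSeq genes of GRCg7b. Raw intensities were not used here, and precision is set by the number of arrays.

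Linear models were fitted with limma 3.58.1 (lmFit, eBayes) in R 4.3.3, with two-sided p-values adjusted by Benjamini-Hochberg over the 17894 probe sets, and members were called below an adjusted p of 0.05. Diet and sex were fitted as additive terms. Diet within a sex and the interaction used a fit of the 4 group means with 1 shared spread. Quoted errors of differences are SE, and no repeat arrays of a bird were given. Correlations were taken on residuals from the group means, with two-sided permutation of birds (100000 resamples). The members, role lists, markers and tests were chosen with earlier results of these data known. Genes were named per comparison if they passed, up to 10 per direction, or filled to 4 per direction by the smallest unadjusted p, and members with the largest or smallest spread of a role and all measured helicase subunits were named too. Further members for sex were named after their values were seen, as said beside them, and members in the correlations by the size of r. Python 3.11.15 with scipy 1.17.1, pandas 2.3.3, matplotlib 3.10.9 and numpy 2.4.6 served for tables and plots, and the fit was tested on simulated data. Promoter motifs were not run, and no sequence is given.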

Additional observations from a re-analysis of the deposited data

Results flagged for a closer look

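In each group of 8 birds the highest and lowest signal of each member was set against the other 7 birds, and 21 of 320 such group tests stood apart by Dixon's ratio of gap to range (above 0.526), where chance flags about 1 in 20. No cause was tested for any of them.

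Among genes of DNA replication and the cell cycle cyclins, POLE stood high in comfrey-fed male 6 at 6.71 and CCNE1 in control male 2 at 6.87. In control male 2, KIF7 was also low, at 6.10. Among kinetochore and checkpoint genes, BUB1B was low in control male 1 at 5.53 and CENPL in comfrey-fed female 7 at 4.99. AURKAIP1, of the mitochondrial ribosome, was low in comfrey-fed female 2 at 9.12. Among transcription kinases, CDK12 was low in control female 4 at 9.47 and high in control male 8 at 10.17, and CDK19 was low in control female 4 at 9.96 and in comfrey-fed male 3 at 10.05.

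Among mitotic kinesins, KIF14 was high in control male 6 at 10.75, KIF18B low in comfrey-fed male 5 at 5.43 and KIF20B low in comfrey-fed male 4 at 4.25. Among other kinesins, KIF16B was low in control male 6 at 4.84, where the other 7 control males lay at 5.96 or above. KIF3A was low in control male 8 at 5.91 and KIF25 in control male 3 at 4.38. KIF1BP, a protein that binds kinesins, was high in comfrey-fed female 3 at 10.86. The remaining values were CCNI2 in control female 3 at 5.63, CDC2L1 in comfrey-fed female 1 at 10.66, CDC42BPA in control female 7 at 4.36 and CDC42BPB in comfrey-fed female 7 at 8.35.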

How the results depend on the processing

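The alternatives were a trended robust prior, array weights, bird number as a covariate, birds 1 to 16 and birds 17 to 32 as blocks, a second quantile normalization, only probe sets brighter than the median, repeated rows left out, the mean over probe sets, single birds left out and, within a sex, only its 16 birds. The counts of members called for diet, for diet within either sex and for the interaction were 0 under all of these. The count for sex was 3, went to 1 with the block, to 4 with bird number (MCM4 lost, adjusted p 0.0518, CCNG2 and KIF26A gained) and to 4 with only bright probe sets (CCNG2 gained), and ranged from 1 (without comfrey-fed male 7) to 6 (without control male 1) when single birds were left out, with 5 without comfrey-fed male 6. The count for birds 17 to 32 against 1 to 16 was 2, went to 1 with the mean over probe sets, and ranged from 1 to 8 (without control male 2) with single birds left out, with 4 without control male 4. No result changed sign past the threshold. No paired analysis was possible because the labels give no shared replicate numbers. Small differences in members near the bottom of the signal range, such as KIF13B, are limited by signal over background, and the promoter motifs were not run.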
